A study of Mus musculus with 8 samples.

Results

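The TREM and CD300 receptors and 3 inhibitory receptors of myeloid cells were followed in immortalised mouse myeloid cells with and without loss of a Meis1 transgene. The 10 genes were Trem1, Trem2, Trem3, Cd300a, Cd300lb, Cd300ld, Cd300lf, Lair1, Pirb and Sirpa, found by exact match of their symbols in the platform's probe annotation. They had 17 of the 45037 probe sets on the array that were not controls and made up 10 of the 11836 genes tested. All 17 probe sets passed the filter on low values.

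The cells came from bone marrow of C57BL/6 mice with a tamoxifen-inducible Cre recombinase (Cre-ERT2) knocked in at the Rosa26 locus. They had been immortalised with retroviruses for Hoxa9 and for a floxed Meis1, and both groups grew in 10% serum with 5 ng/ml interleukin-3. The Meis1 deleted group (4 arrays) had received 2 µM 4-hydroxytamoxifen, which activates Cre to remove the retroviral Meis1, and the Hoxa9 and Meis1 group (4 arrays) had no such treatment and kept it. The labels name no vehicle for the control and report a genomic PCR check of the deletion. The effects of the drug and of Cre activity therefore cannot be told apart from those of losing Meis1. Whether the 4 arrays of a group stand for separate cultures is not labelled, so the tests speak only to the spread among these arrays, and that spread may be technical.

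These receptors set how strongly a myeloid cell responds to what it touches. TREM proteins and the activating CD300 proteins have short tails and signal through adaptors with activation motifs, chiefly Tyrobp (DAP12) and Fcer1g, which recruit the kinase Syk. The inhibitory receptors carry tyrosine motifs in their own tails that recruit the phosphatases Ptpn6 and Ptpn11 and so restrain kinase signalling. Macrophages and neutrophils carry both kinds, and many ligands are lipids, collagens or proteins of the body's own cells.

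After deletion of Meis1 the cells had higher levels of 6 of the 10 genes and a lower level of 1. Trem2, Sirpa, Cd300lf, Cd300ld, Cd300a and Pirb rose, Trem1 fell, and Trem3, Cd300lb and Lair1 did not pass the test. Among all genes tested 35.5% passed, 18.1% higher and 17.5% lower. At least 2-fold rises were seen for 4 of the 10 (2.51% of all genes) and an at least 2-fold fall for Trem1 (0.676% of all genes). The groups did not overlap for 8 of the 10 genes, against 38.6% of all genes. By role, 4 of the 5 inhibitory genes rose and none fell, with a median log2 fold change of 0.86 (0.52 with a gene's probe sets averaged). Of the 5 activating genes 2 rose and 1 fell, with a median of 0.07 (0.02 without Meis1 deleted replicate 1). The median over all genes tested was -0.0044. The difference between the roles was not tested. Fold changes are on the log2 scale, and a positive value means a higher level after deletion.

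**Figure D1:**
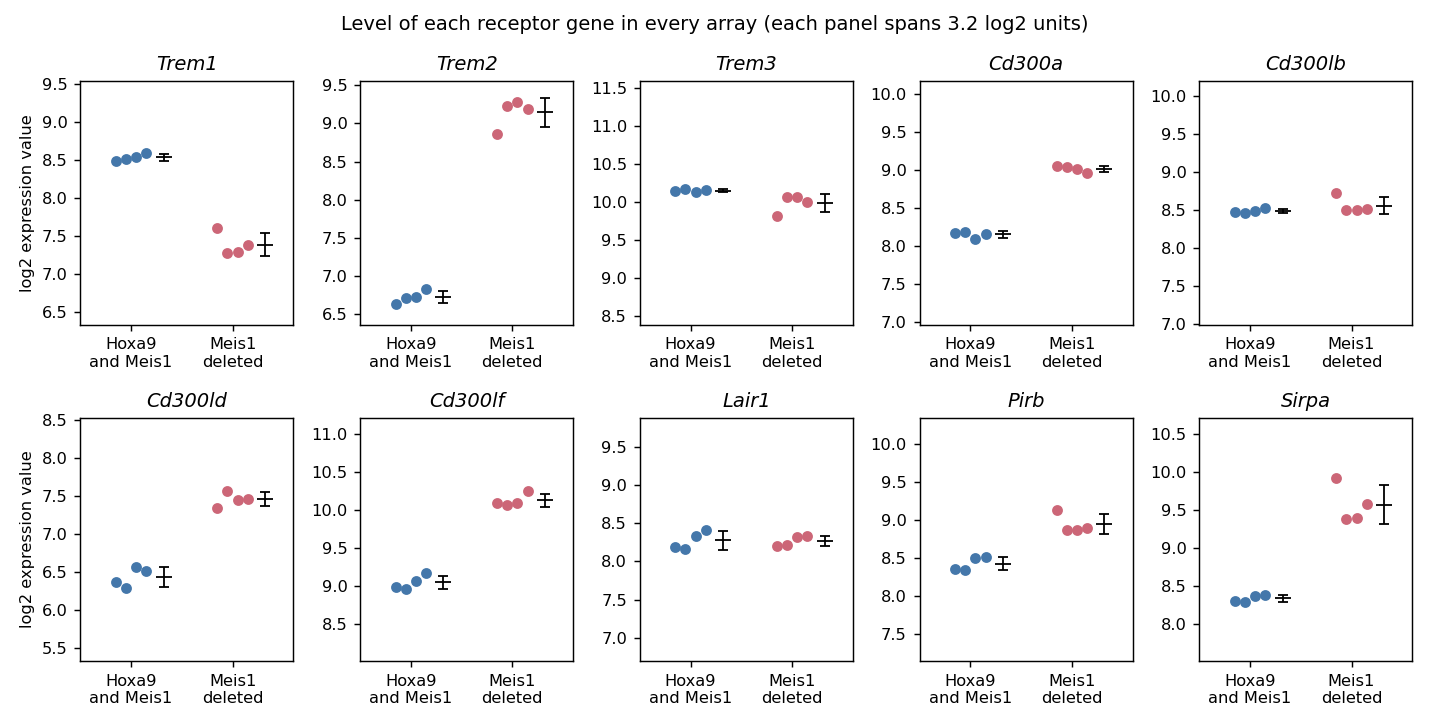
Level of each receptor gene in every array on the deposited log2 scale, by group, with points in order of replicate number and the mean and SD over 4 arrays beside them. Trem2 reads 6.63 to 6.83 with Meis1 and 8.86 to 9.29 after deletion, Trem1 moves the other way, and the groups of Cd300lb and Lair1 overlap.

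Some facts of the arrays bear on these values. Meis1 deleted replicate 1 stood apart: over all genes its root mean square deviation from the group mean was 0.166, against 0.0763 to 0.0896 on the other arrays. Its Gapdh control read 0.72 higher at the 3′ end than at the 5′ end, against -0.07 to 0.04 elsewhere, and its actin control 0.67 higher, against 0.32 to 0.38. The spiked bioB control split the arrays into 2 sets, set 1 with 3 deleted and 2 control arrays and set 2 with 1 deleted and 2 control arrays. The labels name no batch. The probe set that stood for Meis1 read 5.02 ± 0.07 after deletion and 5.00 ± 0.05 before (SD, n = 4, limma adjusted p = 0.759). Whether it lies in the retroviral cDNA is not given, so it checks neither the deletion nor the labels. The granule gene Mpo and the surface gene Itgam, listed here with myeloid progenitors, were present in both groups. Mpo read 10.30 ± 0.10 before and 10.89 ± 0.15 after deletion, and Itgam, the CD11b integrin chain, 8.73 ± 0.06 and 8.95 ± 0.19. Other markers of that list went both ways. Spi1 and Myb rose by 0.28 ± 0.06 and 0.27 ± 0.07. Cd34 fell from 5.87 ± 0.21 to 4.00 ± 0.08, which is under the filter level of 4.29. Of all 10 markers in the list 3 rose and 4 fell. Levels are compared only within a probe set, since probe sets differ in affinity.

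Sequences before the start sites are shown for 4 genes that moved, chosen for their contrast: Trem1, which fell, and Trem2, Cd300ld and Pirb, which rose. They are RefSeq sequences of the GRCm38.p6 build, chr17:48232489-48232712 (+ strand), chr17:48346151-48346400 (+), chr11:114989887-114990136 (- strand) and chr7:3720383-3720632 (-). They are printed 5′ to 3′ from the 250 bases before the start site of each gene's RefSeq promoter entry. For Trem1 the last 26 of these are left out, since they lie inside the RefSeq gene. Capitals mark matches on either strand to the motifs spelled out below.
Trem1 (fell): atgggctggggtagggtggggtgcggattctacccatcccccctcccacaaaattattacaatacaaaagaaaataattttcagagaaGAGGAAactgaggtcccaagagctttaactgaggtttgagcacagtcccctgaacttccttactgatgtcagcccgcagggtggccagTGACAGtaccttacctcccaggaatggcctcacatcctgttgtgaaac
Trem2 (rose): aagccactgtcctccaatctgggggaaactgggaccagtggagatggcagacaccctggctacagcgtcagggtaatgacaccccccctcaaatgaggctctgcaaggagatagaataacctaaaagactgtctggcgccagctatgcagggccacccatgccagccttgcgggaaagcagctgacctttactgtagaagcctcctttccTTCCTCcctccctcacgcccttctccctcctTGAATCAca
Cd300ld (rose): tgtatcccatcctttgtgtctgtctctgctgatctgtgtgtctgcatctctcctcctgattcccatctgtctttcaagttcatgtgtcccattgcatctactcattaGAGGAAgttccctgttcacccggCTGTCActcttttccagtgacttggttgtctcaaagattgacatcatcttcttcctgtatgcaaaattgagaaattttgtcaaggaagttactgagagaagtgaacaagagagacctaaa
Pirb (rose): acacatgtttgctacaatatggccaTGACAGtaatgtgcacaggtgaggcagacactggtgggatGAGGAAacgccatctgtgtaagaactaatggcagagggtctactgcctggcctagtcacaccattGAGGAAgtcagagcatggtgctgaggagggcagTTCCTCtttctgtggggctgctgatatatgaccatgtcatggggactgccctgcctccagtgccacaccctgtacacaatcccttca
RefSeq promoter entries were matched for 8 of the 10 genes, all but Trem3 and Sirpa. In the 250 bases before the start, the core letters of PU.1 sites (GAGGAA) were found in 7 of these 8, and in 23.3% of all 32851 windows of that length. The exception was Cd300lb, which did not pass the test, while Lair1, which did not pass either, had 1 match. Pirb held 3 matches. Letters of Meis sites (TGACAG) were in 3 of the 8, in Trem1, Cd300ld and Pirb, and in 15.9% of all windows. Those genes moved in both directions. An AP-1 match (TGANTCA) was in Trem2 alone of the 8, beginning 9 bases before the start (6.75% of all windows), and C/EBP letters (TTGCNNAA) were in Cd300a and Lair1 (9.56% of all windows). No match was found in the 8 windows for Hox with Pbx (TGATTTAT), the interferon response element, Runx (TGTGGT) or the E-box of Mitf and Tfe factors (CACGTG), which were in 0.837%, 2.98%, 14.0% and 6.02% of all windows. The motifs as searched did not overlap in the printed stretches.

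The activating TREM genes went in opposite directions. Trem2, a receptor for lipids and lipoproteins that supports phagocytosis by macrophages and microglia, read 6.63, 6.71, 6.72 and 6.83 in replicates 1 to 4 of the cells with Meis1 and 8.86, 9.23, 9.29 and 9.20 after deletion. The lowest deleted array lay far above the highest control. The log2 fold change was 2.42 ± 0.09 (SE, limma adjusted p = 6.46e-08), a 5.37-fold rise that ranked 62 among the rises of all genes. It was 2.52 without Meis1 deleted replicate 1, and 2.46 and 2.42 within array sets 1 and 2. The mean of its probe sets gave 1.15. This rise rests on 1 of Trem2's 2 probe sets. The other read 5.39 ± 0.16 with Meis1 and 5.26 ± 0.06 after deletion, and its change of -0.13 ± 0.08 did not pass (adjusted p = 0.251 over probe sets). The probe set that rose has the suffix that Affymetrix gives to probes shared by several transcripts, and the annotation gives both the same RefSeq transcript.

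Trem1, a receptor that amplifies inflammatory signals in neutrophils and monocytes, fell. It read 8.48, 8.52, 8.54 and 8.59 with Meis1 and 7.61, 7.28, 7.29 and 7.38 after deletion, with no overlap. The log2 fold change was -1.14 ± 0.08 (adjusted p = 3.12e-06), which ranked 60 among the falls of all genes. Replicate 1 was the highest of the deleted arrays, and without it the value was -1.22. Within array sets 1 and 2 it was -1.11 and -1.18. The further Trem1 probe set also fell, from 6.44 ± 0.18 to 5.27 ± 0.19 (-1.17 ± 0.11, adjusted p = 5.07e-05 over probe sets). Both probe sets of Trem1 therefore passed in the same direction.

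Trem3, an activating relative that pairs with the same adaptor in mice, changed least of the TREM genes. It read 10.14, 10.17, 10.12 and 10.16 with Meis1 and 9.81, 10.06, 10.06 and 10.00 after deletion. Every deleted array lay under every control, yet the change of -0.16 ± 0.06 did not pass (adjusted p = 0.0677), and its 95% interval ran from -0.31 to -0.02. Without replicate 1 of the deleted group, the lowest array, the change was -0.11 (adjusted p = 0.0693). It passed under 3 other settings, with an offset of 64, with eBayes with trend and robust, and with array set as a block and that array left out. Over 22 alternatives its adjusted p ranged from 0.0321 to 0.293.

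Along the chromosome the Trem genes lie in a cluster, and the change varied from gene to gene. In RefSeq order, Trem1 (-1.14) and Trem3 (-0.16) were followed by Treml2, a TREM-like gene, which fell by 0.18 (adjusted p = 0.0486), a call lost under 12 of 22 alternatives. Beyond it B430306N03Rik rose by 0.95 ± 0.07 (adjusted p = 8.34e-06), next to Trem2, and Treml1, known from platelets, rose by 0.28 ± 0.08 (adjusted p = 0.0249) from 5.11 to 5.40. The Treml1 call was lost under 5 of 21 alternatives, among them without Hoxa9 and Meis1 replicate 3 or 4 or Meis1 deleted replicate 3 (adjusted p = 0.0721, 0.0667 and 0.0675), and with an offset of 64 the change was 0.10. Nfya, which flanks the cluster, fell by 0.20, a call lost under 11 of 22 alternatives. Of these genes, only the fall of Trem1 and the rises of B430306N03Rik and Trem2 held under all 22 alternatives. The tested genes from Trem1 to Treml2 had negative values and those from B430306N03Rik to Treml1 positive ones, while the flanking Nfya was negative. Whether the change goes with position was not tested.

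**Figure D2:**
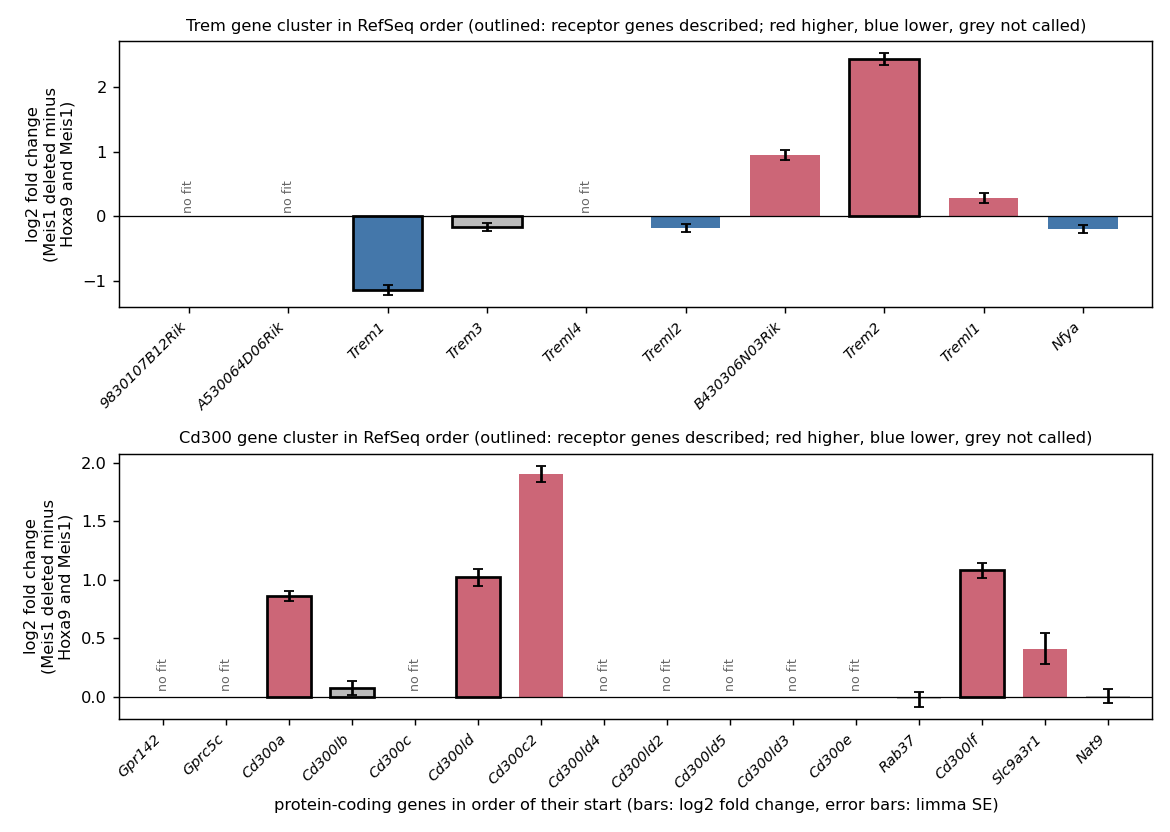
Log2 fold change with limma SE of the genes of the Trem and Cd300 clusters in RefSeq order, with receptor genes described here outlined and genes without a tested probe set marked "no fit". In the Trem cluster the bars turn from -1.14 at Trem1 to 2.42 at Trem2, and in the Cd300 cluster Cd300c2 stands highest at 1.90 while Cd300lb is at 0.07.

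Of the 4 CD300 genes 3 rose and none fell, with a median of 0.94. Cd300lf, an inhibitory receptor of myeloid cells that binds lipids such as ceramide, read 8.99, 8.97, 9.06 and 9.17 with Meis1 and 10.10, 10.07, 10.10 and 10.26 after deletion. The groups lay well apart. It rose by 1.08 ± 0.06 (adjusted p = 1.24e-06), with 1.09 without Meis1 deleted replicate 1 and 1.11 and 1.14 within the array sets.

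Cd300a, an inhibitory receptor for phosphatidylserine and phosphatidylethanolamine on dying cells, read 8.18, 8.19, 8.09 and 8.16 with Meis1 and 9.05, 9.04, 9.02 and 8.97 after deletion. The groups did not overlap, and their SDs were 0.05 and 0.04. The rise was 0.86 ± 0.04 (adjusted p = 5.56e-07), and it was 0.85 and 0.84 within the array sets. The further Cd300a probe set was low, at 4.98 ± 0.15 and 5.16 ± 0.08, its groups overlapped, and its change of 0.18 ± 0.08 did not pass (adjusted p = 0.120 over probe sets). The mean of both probe sets gave 0.52.

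Cd300ld, an activating CD300 receptor that signals through Fcer1g, read 6.37, 6.28, 6.56 and 6.52 with Meis1 and 7.34, 7.56, 7.44 and 7.46 after deletion. It rose by 1.02 ± 0.07 (adjusted p = 6.37e-06), without overlap, and by 1.12 and 0.92 within the array sets. With an offset of 64 the value was 0.67.

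Cd300lb, an activating receptor that pairs with Tyrobp, stayed between 8.47 and 8.52 in all 4 arrays with Meis1 and in 3 of the deleted arrays read between 8.50 and 8.51. Meis1 deleted replicate 1 read 8.73. The change was 0.07 ± 0.06 (adjusted p = 0.390), with a 95% interval from -0.06 to 0.21, and 0.02 without that array. The intervals of the nearby Cd300a and Cd300ld began at 0.76 and 0.85, and the difference between the genes was not tested.

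The largest change in the Cd300 cluster lay outside the 4 genes. Cd300c2, which lies beside Cd300ld, rose from 7.15 ± 0.09 to 9.06 ± 0.12, by 1.90 ± 0.07 (adjusted p = 6.24e-08). Rab37, a small GTPase gene between the Cd300 genes, read 4.68 ± 0.05 and 4.65 ± 0.13 (adjusted p = 0.814). Slc9a3r1, which flanks Cd300lf, rose by 0.41 ± 0.13 (adjusted p = 0.0338), a call lost under 6 of 22 alternatives, among them without Meis1 deleted replicate 1 (adjusted p = 0.0511). CD300 genes resemble each other in sequence, and whether probes for one detect another was not tested.

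Sirpa, the inhibitory receptor for Cd47 that restrains phagocytosis, rose by more than the other inhibitory genes on the probe set that stands for it, while with probe sets averaged it was at 0.87 and Cd300lf at 1.08. It read 8.31, 8.30, 8.37 and 8.39 with Meis1 and 9.92, 9.37, 9.39 and 9.58 after deletion, with the groups far apart. The change was 1.23 ± 0.11 (adjusted p = 2.97e-05), 1.11 without Meis1 deleted replicate 1, and 1.26 and 1.21 within the array sets. A second Sirpa probe set rose as well, from 6.67 ± 0.05 to 7.48 ± 0.25 (0.81 ± 0.11, adjusted p = 5.09e-04 over probe sets). The third read 4.73 ± 0.23 and 5.31 ± 0.53, and its change of 0.58 ± 0.24 did not pass (adjusted p = 0.0972). Meis1 deleted replicate 1 was the highest deleted array on the first probe set but the lowest on the others, at 7.11 and 4.52. Without it the third probe set passed (0.84, adjusted p = 4.13e-04), so that all 3 rose.

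Pirb, the inhibitory paired immunoglobulin-like receptor for major histocompatibility complex (MHC) class I proteins, read 8.35, 8.35, 8.49 and 8.51 with Meis1 and 9.13, 8.87, 8.87 and 8.90 after deletion. It rose by 0.52 ± 0.07 (adjusted p = 5.11e-04), the smallest rise among the 6, with no overlap. It was 0.45 without Meis1 deleted replicate 1 and 0.61 and 0.40 within the array sets. Its activating relatives in the same cluster moved the other way: Pira1 fell by 0.24 ± 0.05 (adjusted p = 0.00556), from 10.13 ± 0.03 to 9.89 ± 0.08, and the predicted gene Gm14548 fell by 0.39 ± 0.09 (adjusted p = 0.00960). Paired Pir genes are nearly identical over long stretches, so each of these values is uncertain as a reading of 1 gene. The calls for Pira1 (adjusted p = 0.107 and 0.0744) and Gm14548 (0.0884 and 0.0945) were lost within either array set, where fewer arrays were tested.

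Lair1, an inhibitory receptor for collagens, read between 8.16 and 8.41 with Meis1 and between 8.20 and 8.34 after deletion. The groups overlapped on each of its 3 probe sets. The probe set that stands for the gene changed by -0.01 ± 0.07 (adjusted p = 0.942, 95% interval -0.16 to 0.14), and the others by 0.15 ± 0.08 and 0.18 ± 0.11 (adjusted p = 0.175 and 0.264 over probe sets). The sign of the gene's value turned under 9 of 22 alternatives. The highest value was 0.11, with the probe sets averaged, and within array set 1 the first probe set was at 0.07.

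**Figure D3:**
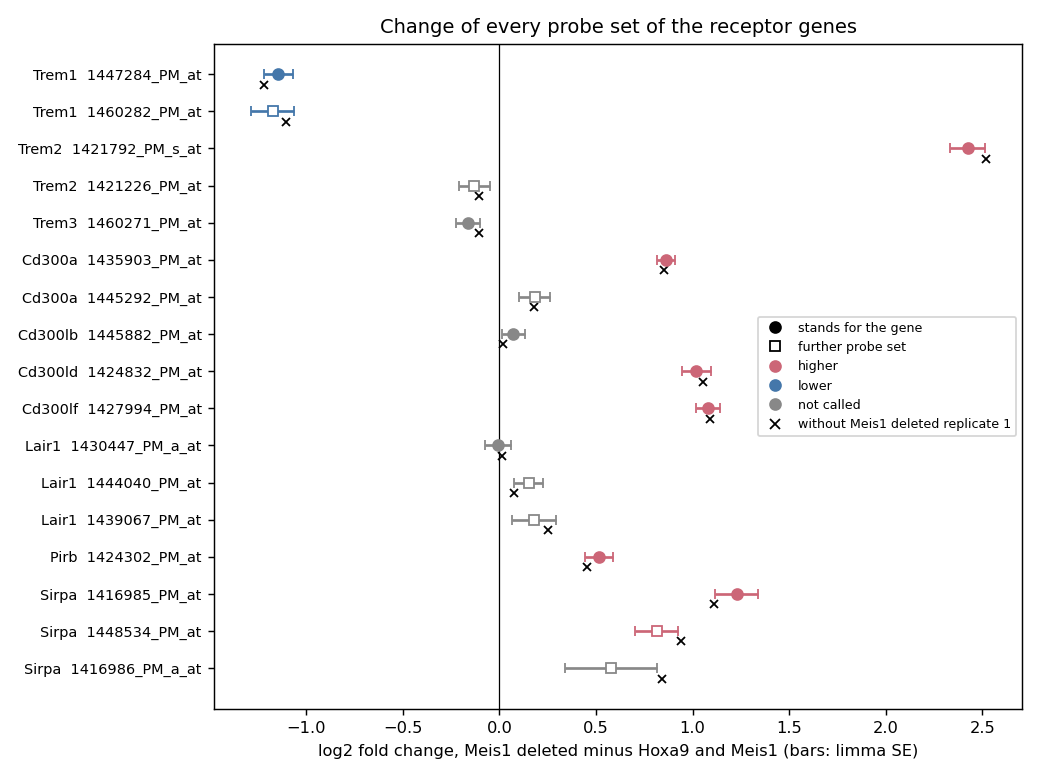
Log2 fold change with limma SE of all 17 probe sets of the receptor genes, filled for the probe set that stands for its gene, with crosses for the value without Meis1 deleted replicate 1. The Trem1 probe sets lie at -1.14 and -1.17, those of Trem2 lie apart at 2.42 and -0.13, and the crosses stay on the same side of 0 except for the Lair1 probe set at -0.01.

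Taken singly over all kept probe sets, of which 31.3% passed, 7 of the 17 rose and 2 fell. Of the 5 genes with more than 1 probe set, Trem1 had both lower and Lair1 had all 3 not called, while Trem2, Cd300a and Sirpa each had at least 1 called and 1 not called.

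**Figure D4:**
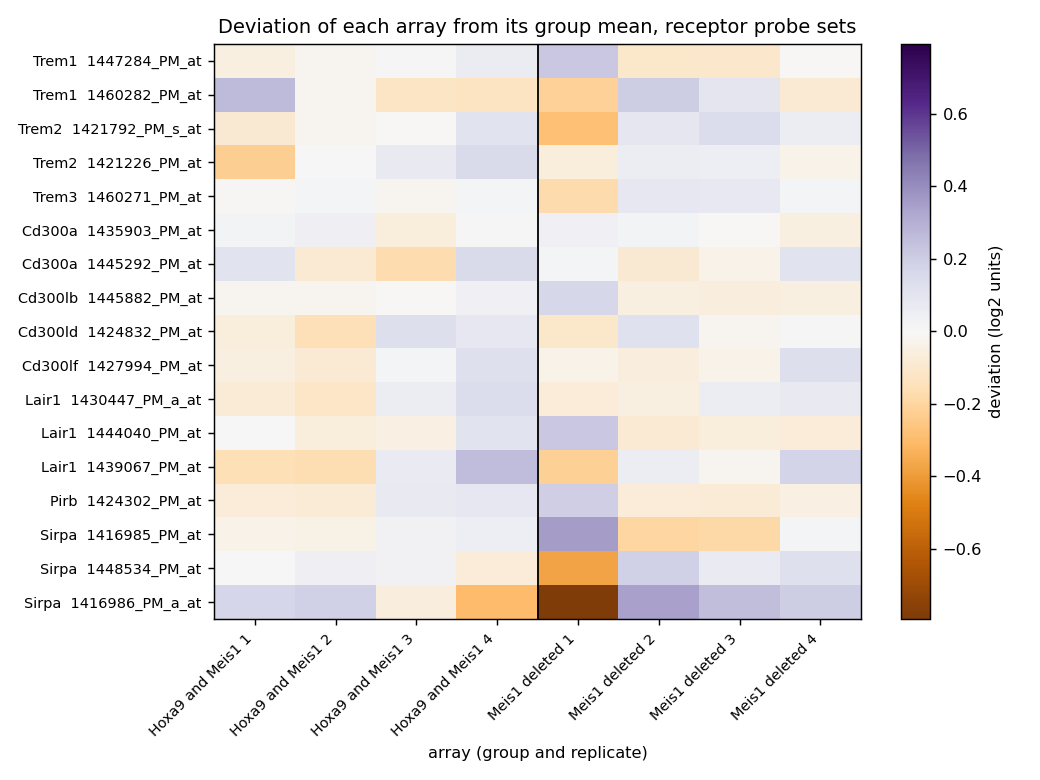
Deviation of each array from its group mean for the 17 probe sets, in log2 units, with rows as probe sets and columns as arrays. Meis1 deleted replicate 1 holds the strongest colours, among them opposite ones for the Sirpa probe sets, where it read 9.92 on one and 4.52 on another.

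The genes nearest to Trem2 and Trem1 in profile were found as the smallest Euclidean distance over 8 arrays after centring each gene on its mean, among 11835 other genes. Closest to Trem2 were Iigp1, an interferon-inducible GTPase (2.56 ± 0.12), Ltf, the granule protein lactoferrin (2.58 ± 0.05), and Chil4, a chitinase-like protein (2.22 ± 0.06), at distances of 0.304, 0.333 and 0.384. Closest to Trem1 were Cobll1 (-1.12 ± 0.08), the AP-1 factor Fosl2 (-1.16 ± 0.09) and the MAP kinase phosphatase Dusp16 (-1.11 ± 0.07), at distances of 0.0969, 0.110 and 0.154. The distance is made mostly of the difference between the groups. Iigp1 with Meis1 (3.99 ± 0.09) and Cobll1 after deletion (3.86 ± 0.17) lay under the filter level of 4.29, so their changes and ranks rest on a group near background. With an offset of 64 they changed by 0.98 and -0.28. Fosl2 was at -0.63 with probe sets averaged.

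The adaptors and kinases that carry activating signals moved by smaller amounts. Of 18 tested members of that list 9 rose and 4 fell, with a median of 0.26. Tyrobp, the adaptor of Trem1, Trem2, Trem3 and Cd300lb, rose from 11.81 ± 0.02 to 12.17 ± 0.03, and Fcer1g, the partner of Cd300ld, rose by 0.28 ± 0.05 (adjusted p = 0.00188). Hcst (DAP10), a further adaptor, fell by 0.29. The call for Fcer1g was lost within array set 2 and that for Hcst within array set 1 (adjusted p = 0.0920 and 0.0859). Blnk, a scaffold of Syk substrates, rose by 0.63 ± 0.10, Pik3ap1, an adaptor for phosphoinositide kinase, by 0.36 ± 0.06, and Bcl10, which links these receptors to NF-kB, fell by 0.47. Blnk with Meis1 read 4.24 ± 0.18, under the filter level, and its change was 0.17 with an offset of 64. Syk itself was under the filter, at 4.06 ± 0.02 and 4.13 ± 0.08. The list median was 0.09 with probe sets averaged per gene and 0.16 with an offset of 64. Within array sets 1 and 2, with fewer arrays, 6 rose and 1 fell, and 5 rose and 2 fell.

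The list set beside the inhibitory receptors holds phosphatases and docking proteins, but also the adaptors Fyb and Skap2 and the receptor-type phosphatase Ptprj. Its count and median are therefore not those of inhibitory genes alone. Of 15 tested members set beside the tails of Sirpa, Pirb, Cd300a and Cd300lf, 9 rose and 1 fell, with a median of 0.32. Ptpn6 (SHP-1), the phosphatase bound by these tails, rose from 9.72 ± 0.13 to 10.13 ± 0.16 (0.41 ± 0.09, adjusted p = 0.00736), a call lost within array set 2 (0.0666), while Ptpn11 (SHP-2) read 9.46 ± 0.01 and 9.47 ± 0.06 (adjusted p = 0.987). Inpp5d (SHIP-1), a lipid phosphatase, rose by 0.49 ± 0.07. Fyb and Skap2, adaptors found in complex with Sirpa, rose by 1.07 ± 0.06 and 0.32 ± 0.05. Ptprj, a receptor-type phosphatase, rose by 1.16 ± 0.07 and Dok1, a docking protein that restrains kinase signalling, by 0.76 ± 0.05. With an offset of 64 these were 0.72 and 0.48, and Ptprj was at 0.60 with probe sets averaged. Pag1, an anchor for the inhibitory kinase Csk, fell by 0.22, a call lost under 8 of 22 alternatives. Csk had no named probe set here.

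Among ligands of the receptors 10 of 16 tested genes rose and 2 fell, with a median of 0.41. The complement subunits C1qb and C1qc, which bind Lair1, rose by 6.28 ± 0.07 and 4.53 ± 0.08. C1qa rose too, from 3.86 ± 0.15, under the filter level of 4.29, to 8.83 ± 0.10, and with an offset of 64 its change was 2.72. S100a9, an alarmin, rose by 0.64 ± 0.05. MHC class I genes for Pirb rose slightly, H2-D1 by 0.44 ± 0.05 and H2-K1 by 0.28 ± 0.05. The call for H2-D1 was lost with probe sets averaged (0.15, adjusted p = 0.0656) and that for H2-K1 within array set 1 (0.0564). Cd47, the ligand of Sirpa, was high in both groups and fell by 0.15 (adjusted p = 0.0467), while Pglyrp1, a ligand of Trem1, rose by 0.46 ± 0.15 (adjusted p = 0.0453). The call for Cd47 was lost under 14 of 22 alternatives, each array left out in turn among them (adjusted p = 0.0512 without Meis1 deleted replicate 1), and that for Pglyrp1 under 8 of 22 (0.0809 without that array). Without Meis1 deleted replicate 1 the counts were 11 and 1. Apoe and Clu, lipoprotein ligands of Trem2, and the collagen genes Col1a1, Col1a2, Col3a1 and Col17a1 were under the filter in these cells. With no filter the median of the list was 0.04.

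Proteases that shed or cleave Trem2 rose in part, with 4 of 8 tested members higher, none lower and a median of 0.20. Psen2, a catalytic subunit of gamma-secretase, rose by 0.69 ± 0.04 and its partners Aph1a and Aph1b by 0.31 ± 0.08 and 0.25 ± 0.07. Mmp9, a secreted metalloprotease, rose by 0.61 ± 0.10, and by 0.19 with an offset of 64. Adam10 and Adam17, the main surface sheddases, read -0.01 ± 0.04 and 0.16 ± 0.06 and did not pass (adjusted p = 0.910 and 0.0588). The calls for Aph1a and Aph1b were lost within array set 1, without Hoxa9 and Meis1 replicate 3 and under further alternatives.

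Genes of the lipid-handling state that Trem2 supports in microglia and macrophages were mostly higher, with 17 of 19 tested members up, 1 down and a median of 0.91. Gpnmb, a membrane glycoprotein of lipid-laden macrophages, rose by 3.55 ± 0.04. Lpl, lipoprotein lipase, rose by 1.73 ± 0.06, Igf1 by 1.77 ± 0.08, Timp2 by 1.34 ± 0.05, the lysosomal proteases Ctsb by 1.96 ± 0.04, Ctsl by 1.37 ± 0.04 and Ctsd by 1.32 ± 0.07, and the chemokine Ccl6 by 1.68 ± 0.04. The exception was Cst7, a protease inhibitor, which fell by 0.47. Itgax read 4.83 ± 0.08 and 4.91 ± 0.06 and did not pass (adjusted p = 0.292). Apoe and Ch25h were under the filter, and Spp1, Axl, Cd63 and B2m had no named probe set here. With no filter the list median was 0.72. This list was written with an earlier result for Trem2 known.

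Among other paired and inhibitory myeloid receptors 12 of 19 tested rose and 2 fell, with a median of 0.47 (0.16 with no filter). The list also holds other surface proteins, such as Cd52 (0.60 ± 0.06), so its counts are not those of such receptors alone. Clec4a2, an inhibitory lectin receptor, rose from 5.77 ± 0.13 to 8.47 ± 0.07 (2.70, and 1.69 with probe sets averaged), and Cd200r4, an activating relative of the receptor for Cd200, from 6.78 ± 0.02 to 9.04 ± 0.06. Both partners of some pairs rose: Pilra, inhibitory, by 1.13 ± 0.06 and Pilrb1, activating, by 1.16 ± 0.05, and inhibitory Cd200r1 by 1.07 ± 0.12 beside Cd200r4. The falls were those of Cd33 (-0.96 ± 0.05, adjusted p = 3.79e-07), a sialic acid-binding receptor, and Pecam1 (-0.38 ± 0.10, adjusted p = 0.0174), an adhesion protein with inhibitory motifs, whose call was lost within either array set (adjusted p = 0.105 and 0.111). Without Meis1 deleted replicate 1 the counts were 11 and 2. Of 6 tested close relatives of the receptors 3 rose and 2 fell, with a median of 0.14 (0.02 with no filter and 0.05 with an offset of 64). Cd300c2 led, followed by Lilrb4a, an inhibitory receptor that rose from 12.20 ± 0.03 to 12.60 ± 0.04.

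**Figure D5:**
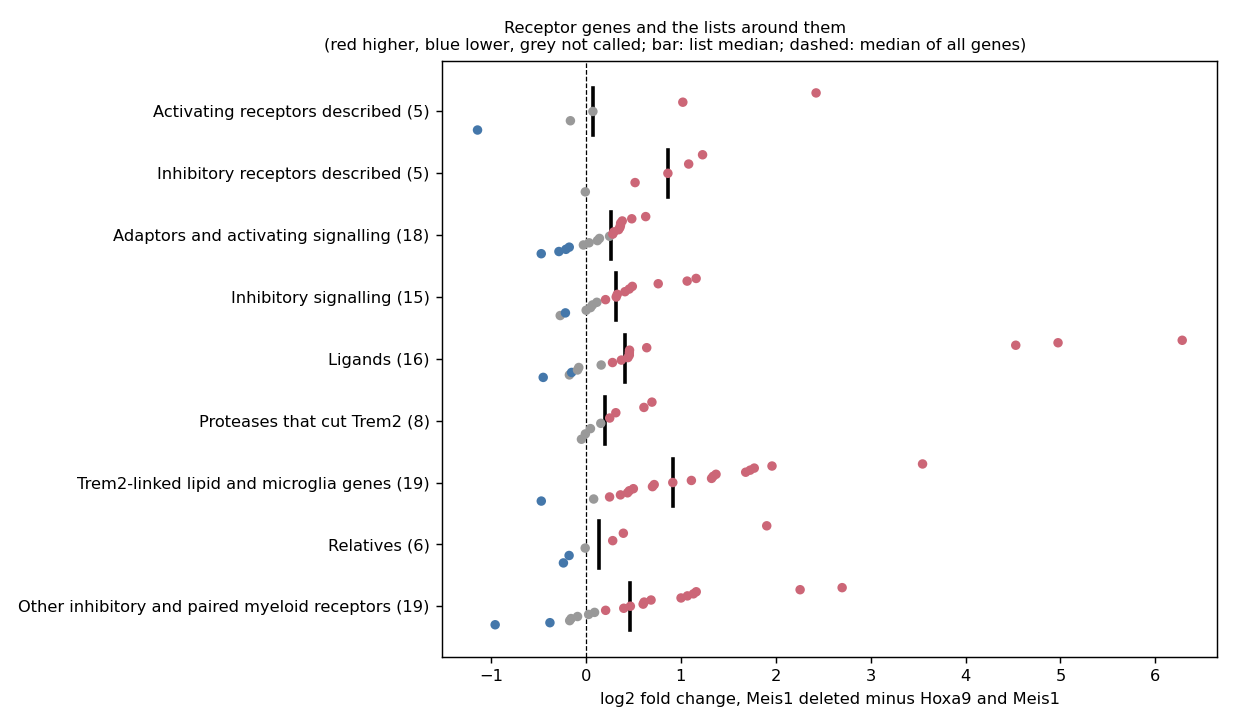
Log2 fold change of every tested gene in the receptor groups and in the lists around them, with the number tested in brackets, a black bar at each median and a dashed line at the median of all genes tested. The inhibitory receptors have a median of 0.86 and the activating ones of 0.07, and most points of the Trem2-linked list lie above 0. The list shown as inhibitory signalling also holds adaptors and a receptor-type phosphatase.

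Most macrophage and neutrophil markers rose, while of the 10 receptors 6 rose and 1 fell. Of the macrophage markers 8 of 9 tested rose and none fell, and their summed linear level went from 5236 to 5506 with Meis1 to 10420 to 10913 after deletion. Neutrophil markers had 7 of 8 higher and 1 lower, with sums of 12847 to 13494 and 22956 to 23409. The lower one was Cxcr2 (-0.25 ± 0.07, limma adjusted p = 0.0217). Progenitor markers had 3 of 10 higher and 4 lower, with sums of 21218 to 21316 and 20696 to 21243. Cd34 (-1.87 ± 0.10), Flt3 (-0.80 ± 0.09), Elane (-0.50 ± 0.13) and Prtn3 (-0.12 ± 0.04) fell, while Mpo, Spi1 and Myb rose (0.59, 0.28 and 0.27). With an offset of 64 Cd34 and Flt3 changed by -0.62 and -0.31. High granule genes such as Ctsg and Prtn3 (13.17 and 12.64 with Meis1) made up most of the sums, so falls of dim genes hardly show in them. In such bulk RNA a larger share of cells of a type and more RNA per cell cannot be told apart, and the part of cell composition in the receptor changes was not tested. Megakaryocyte markers had 3 of 5 higher, led by Pf4 (3.84 ± 0.06) and Ppbp (3.44 ± 0.09), with sums of 232 to 257 and 1932 to 2097. The rise of the sums came mostly from Pf4 and Ppbp. Vwf, the other that rose (0.87 ± 0.07), read 4.04 ± 0.04 with Meis1, under the filter level of 4.29. With an offset of 64 it changed by 0.23. Gp9 read 4.54 in both groups, and Itga2b did not pass (-0.21 ± 0.09, limma adjusted p = 0.0961). Mast cell and basophil markers had 1 of 4 tested higher and 2 lower, dendritic cell markers 0 of 3 higher and 1 lower, erythroid markers 1 of 4 higher and 0 lower, T and NK cell markers 0 of 4 higher and 1 lower, stromal markers 0 of 2 higher and 1 lower, and B cell markers 0 of 2 in either direction. The higher mast cell marker, Ms4a2, lost its call under 13 of 21 alternatives, Gata2, one of the lower, under 5 of 21, and the higher erythroid marker, Epor, under 6 of 21. None of the 4 eosinophil markers passed the filter. Cd3g, Cd8a, Pax5, Ebf1, Col1a1 and Col3a1 lay under the filter of 4.29.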

How the data were processed

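Gene expression was measured in 8 samples on 1-colour Affymetrix arrays, 4 per group, from 100 ng of total RNA each. The authors deposited log2 expression values per probe set, judged so from values between 2.65 and 13.2 and already alike in quantiles between arrays. Per the submitters' processing notes MAS5 was a tool, without further detail. How probes were summarised, and the genome build: not given in the sources used here.

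Of 45037 probe sets other than controls, 28898 had 1 gene symbol in GEO's platform annotation, 551 had several and 15588 were unnamed here. Probe sets in the lowest 40% by mean (below log2 4.29) were left out, which kept 27022. All of these were fitted with limma 3.58.1 (lmFit, eBayes) in R 4.3.3. Each gene was represented by its kept probe set of highest mean, and p-values were adjusted by the Benjamini-Hochberg method over 11836 genes, with a threshold of 0.05. Probe sets taken singly were adjusted over all 27022. Figures were drawn with Python 3.11.15 and matplotlib 3.10.9.

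The 10 receptor genes and all gene lists were chosen with earlier results of these data known. Named genes were the 10 receptors with every probe set, up to 4 members per list with the smallest p, genes whose role is set beside a receptor (followed under the alternatives where called), and the 3 nearest profiles to the receptor that rose most and to the one that fell most. Further list members given for contrast, chromosomal neighbours and promoter motifs were chosen after values were seen. No set test was run, and each list was described by its counts and median. Alternatives covered the offset, the normalization, the filter, the probe set rule, the variance model, array weights, the replicate number, the array set and each array left out.

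The procedure was tested on simulated data for this comparison with 11831 genes. For simulated log2 changes of 0.25, 0.5 and 1, it called 16, 42 and 50 of 50 genes, and 9 calls were false. The noise was drawn independently for each probe set and array, and few genes were changed. The deviation of Meis1 deleted replicate 1, the array sets and the large share of called genes were not simulated. The count of false calls therefore does not carry over to these arrays. Same-numbered samples were not treated as pairs, since nothing in the labels says that they pair. The correlations of their deviations from the group means ran from -0.131 to 0.289. Having 4 arrays a group limits the precision.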

Additional observations from a re-analysis of the deposited data

Results flagged for a closer look

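Among 184 groups of 4 arrays examined, 15 had 1 array far from the other 3, by a gap between neighbouring values that took up most of the group's range. Chance gives about 1 in 20. Of these, 8 were Meis1 deleted replicate 1, the array with the raised 3′ to 5′ difference of its Gapdh and actin controls. On that array Cd300lb read 8.73 (next 8.51), Pirb 9.13 (next 8.90), a further Lair1 probe set 8.43 (next 8.14), the dimmest Sirpa probe set 4.52 (next 5.51), Mrc1 11.19 (next 10.91), Mmp8 10.69 (next 10.82), Cd47 11.76 (next 11.92) and Cd200r1 8.27 (next 8.77). In Meis1 deleted replicate 4, Cd300lf read 10.26 (next 10.10), Bcl10 9.04 (next 8.96) and Cd34 3.88 (next 4.03). In Hoxa9 and Meis1 replicate 4, Ptprj read 6.25 (next 6.08), Ctsl 10.80 (next 10.76) and Pilrb1 8.86 (next 8.69). In Hoxa9 and Meis1 replicate 2, Mcpt8 read 7.62 (next 7.76). Without Meis1 deleted replicate 1 the change of Pirb was 0.45 in place of 0.52 and that of Cd300lb 0.02 in place of 0.07.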

How the results depend on the processing

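In the 22 alternatives 6 receptors were called higher and Trem1 lower, but the fit within bioB set 2 has 1 deleted array and adds little. The count of receptors called lower was 2, with Trem3 as the addition, with an offset of 64 (adjusted p = 0.0435), with eBayes with trend and robust (0.0398) and with the bioB set as a block when Meis1 deleted replicate 1 was also dropped (0.0321), an alternative chosen after seeing the data. Lair1, never called, changed sign with the mean of probe sets (0.11), array weights (0.0179), the bioB set as a block (0.0301, and 0.0392 when Meis1 deleted replicate 1 was dropped too) and within bioB set 1 (0.0664), and ranged from -0.0463 to 0.0387 with each array left out. Genes called higher and lower numbered 1215 and 899 within bioB set 1 and 1166 and 992 within bioB set 2, against 2140 and 2066, with fewer arrays in each fit, and set 2's only deleted array was taken to vary like the rest. With each array left out they ranged from 1759 to 2223 and from 1650 to 2450. With the replicate number as a block 2020 and 1886 genes and 6 and 1 receptors were called, which changed no call of a receptor. Only 1 of 4 deleted arrays matched its own number best among the controls. Of 75 other genes followed, each with a call, 24 lost it under some alternative and 0 reversed. Fitting the gene rows alone, also added after seeing the data, called 2264 and 2210 genes.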
